A study of Mus musculus with 4 samples.

Results

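The 81 genes described here encode the proteins of the cytosolic ribosome in the mouse. They are the protein-coding genes of the GENCODE M21 annotation named Rpl or Rps plus a number, with an optional letter or an x, l or y ending, together with Rplp0, Rplp1, Rplp2 and Rpsa and without the Rps6k kinase genes. They were chosen by symbol from 21755 protein-coding genes on the autosomes and the X chromosome. No measured value entered the rule, but the choice was made with earlier results of these data known. By symbol 31 belong to the small subunit, 47 to the large subunit and 3 to the acidic stalk. Fau, whose product is cut to release a ribosomal protein, lies outside the rule.

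Each ribosome holds a single copy of nearly every ribosomal protein, so a growing cell transcribes these genes, which are spread over most chromosomes, at high and matched levels. Their promoters are usually short, lie in CpG-rich sequence and often carry sites for ETS family factors, SP/KLF factors and YY1. Most of their transcripts begin with a run of pyrimidines, the 5′ terminal oligopyrimidine (TOP) tract, through which their translation follows the mTOR growth pathway. In blood, loss of 1 copy of such a gene can impair red cell formation, as in human Diamond-Blackfan anaemia.

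Open chromatin was measured by DNase-seq, in which the nuclease DNase I cuts exposed DNA in nuclei and the cut ends are sequenced. The material was acute myeloid leukemia (AML) cells of the C57BL/6J strain, listed as having been differentiated in vitro. There were 2 biological replicates with 2 libraries each, and the labels gave all 4 libraries the same donor and named no genotype, agent, time point or control. Age was given as unknown and sex as not collected. The comparison the design allows is therefore between the members and all coding genes, read in both replicates.

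Each biological replicate had 1 deposited list of peaks and 1 of hotspots, made from its pooled libraries, so no value below carries a replicate error. Only the labels say that the replicates were separate. A peak is a window of 150 bp with a whole-number score, and a hotspot is a wider region with a −log10 q value. On the assembled chromosomes there were 236215 peaks in replicate 1 and 67438 in replicate 2, with median scores of 74 and 35. Scores ended at 150 in replicate 1, where 1820 peaks held that value, which equals the window width, and at 138 in replicate 2. No source used here states how the score was computed or how many reads lie behind it. Depth is therefore unknown, and scores were ranked within their own list as percentiles up to 100.

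The myeloid label was set against marker promoters. A shared promoter peak, meaning a replicate 1 peak within 1 kb of any annotated start of the gene that overlaps a replicate 2 peak by at least 1 bp, was present at 9 of 10 myeloid markers. Among them were Spi1, the gene of the factor PU.1, with scores of 150 and 94 in replicates 1 and 2, and Mpo, myeloperoxidase, with 126 and 41. Elane, the neutrophil elastase gene, had a peak in replicate 1 alone. Shared promoter peaks were at 0 of 4 T cell, 0 of 4 B cell, 1 of 4 erythroid and 0 of 4 hepatocyte markers.

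Mean rank averages the ranks of a gene's strongest promoter peak in each list, and these peaks can lie at different sites. For Rpl18 they were centred at -2720 bp from the principal start in replicate 1 and at -40 bp in replicate 2. To let high and low mean ranks be compared, sequences around the start are shown. They are those of the 4 genes with the highest mean rank, Rpl15, Rps19, Rpl18 and Rps2, and the 2 with the lowest, Rps4x and Rpl6. Each runs from 150 bases before to 20 bases after the principal start, on the strand of the gene, in GRCm38.p6 (mm10) from RefSeq. Positions count from the start base as +1, and capitals mark exact matches to any of the 10 motifs described further on.
Rpl15 (chr14:18271048-18271217, minus strand): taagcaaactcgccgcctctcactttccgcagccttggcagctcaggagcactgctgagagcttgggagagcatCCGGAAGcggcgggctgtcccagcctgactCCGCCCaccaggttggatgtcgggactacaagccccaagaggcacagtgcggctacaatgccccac
Rps19 (chr7:24884221-24884390, plus strand): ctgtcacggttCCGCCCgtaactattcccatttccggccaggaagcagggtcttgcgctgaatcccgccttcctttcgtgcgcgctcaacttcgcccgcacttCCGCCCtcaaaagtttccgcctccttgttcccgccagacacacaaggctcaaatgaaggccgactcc
Rpl18 (chr7:45717921-45718090, plus strand): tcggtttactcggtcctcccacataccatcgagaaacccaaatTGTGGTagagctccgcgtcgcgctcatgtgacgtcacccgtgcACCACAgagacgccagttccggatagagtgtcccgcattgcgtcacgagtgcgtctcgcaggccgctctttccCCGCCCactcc
Rps2 (chr17:24719960-24720129, plus strand): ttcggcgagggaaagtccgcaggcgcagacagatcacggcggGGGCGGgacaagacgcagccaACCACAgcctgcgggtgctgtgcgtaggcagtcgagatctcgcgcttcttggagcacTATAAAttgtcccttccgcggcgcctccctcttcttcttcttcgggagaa
Rps4x (chrX:102189375-102189544, minus strand): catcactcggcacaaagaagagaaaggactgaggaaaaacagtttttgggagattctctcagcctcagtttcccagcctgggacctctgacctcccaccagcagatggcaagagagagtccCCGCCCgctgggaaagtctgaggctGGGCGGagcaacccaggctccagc
Rpl6 (chr5:121204331-121204500, plus strand): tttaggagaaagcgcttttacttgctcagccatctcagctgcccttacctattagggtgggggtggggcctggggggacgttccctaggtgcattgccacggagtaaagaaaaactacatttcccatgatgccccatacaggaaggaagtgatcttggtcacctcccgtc

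The strongest promoter, that of Rpl15, carried an ETS match at position -76 and an SP/KLF match at -46, both inside its peak. Rps19 carried SP/KLF matches at -139 and -47, and its strongest peaks lay mostly upstream of the stretch printed. In Rps2 a TATA box match began at -30, and the bases after it ran into a long pyrimidine stretch over the start. Rps4x carried SP/KLF matches at -29 and -4. The Rpl6 stretch printed held no match, its ETS match lying at +33.

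Nearly all of the genes had open promoters. A shared promoter peak was found at 78 of the 81 genes (96.3%), against 12658 of 21755 coding genes (58.2%). The 3 exceptions were Rpl3l, with a peak in replicate 1 alone, and Rpl10l and Rpl39l, with no promoter peak in either list. All 76 genes whose symbol does not end in the paralog letter l had a shared promoter peak.

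The open sites of these promoters also ranked high. Among the 78 genes the strongest promoter peak had a median score of 148 in replicate 1 and 88.5 in replicate 2, against 145 and 75 over coding genes with a shared promoter peak. The median mean rank of the 2 lists was 96.5 among the 78 genes, against 92.9 among those coding genes, and 68 of the 78 lay above 92.9. A promoter peak in the top 10% of the replicate 2 scores was found at 66 of the 81 genes (81.5%), against 29.1% of all coding genes and 49.8% of coding genes with a shared promoter peak. In replicate 1, 14 of the 78 genes (17.9%) reached the ceiling of 150, against 13.8% of coding genes with a shared promoter peak. The ceiling leaves the replicate 1 scores little room to separate genes, and the share at the ceiling lay near the background.

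**Figure D1:**
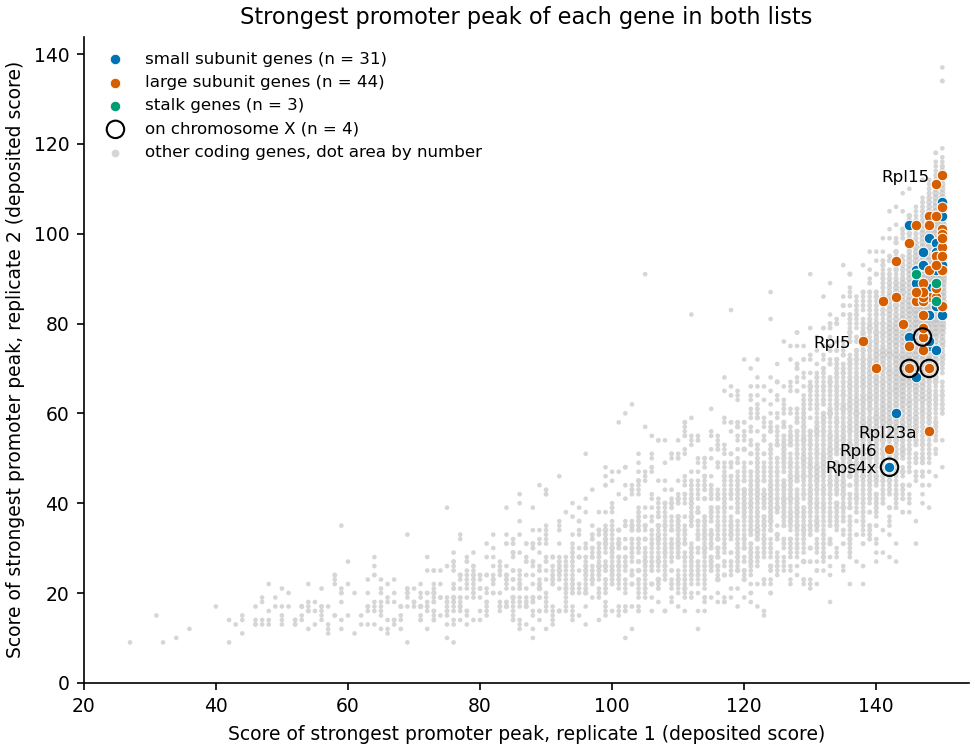
Score of the strongest promoter peak in replicate 1 (horizontal) and replicate 2 (vertical) for the 78 ribosomal protein genes with a shared promoter peak, coloured by subunit, and for other coding genes in grey. The ribosomal protein genes sit between 138 and 150 in replicate 1 and between 48 and 113 in replicate 2, and the 4 on the X chromosome, ringed, reach at most 77 in replicate 2.

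Small subunit genes were open throughout. All 31 had a shared promoter peak, with strongest scores of 142 to 150 (median 148) in replicate 1 and 48 to 107 (median 92) in replicate 2. Rps19, which matures the 18S rRNA and is the gene most often mutated in human Diamond-Blackfan anaemia, had 150 in replicate 1 and 107 in replicate 2, at chr7:24884076-24884225 in replicate 1. Its peak was centred at -220 bp from the principal start in replicate 1 and at -280 bp in replicate 2, negative meaning upstream. By mean rank it stood at place 80 of the 12658 coding genes with a shared promoter peak.

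Rps2, a protein at the entry of the mRNA channel, had 150 and 104 in replicates 1 and 2, at chr17:24719916-24720065. Also at the ceiling in replicate 1 were Rps21, with 93 in replicate 2, and Rps14, with 82. Rps14 is the ribosomal gene of the human 5q deletion in myelodysplastic syndrome. Rps3, which also lies at the mRNA entry and takes part in quality control of stalled ribosomes, had 149 and 92. Rps6, the substrate of the S6 kinases, had 147 and 93, with its peak centred 1 bp after the start in replicate 1. Rpsa, which was also described as a laminin receptor, had 149 and 96.

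Further genes known from Diamond-Blackfan anaemia in humans were named for that role and not for their values. Rps10 had 149 and 93, Rps7 148 and 82, Rps24 146 and 92, and Rps26 149 and 74 in replicates 1 and 2. All of these lay in the top 10% of replicate 1, as did every member with a shared promoter peak. In replicate 2 their scores of 74 to 93 stood beside a small subunit median of 92. On the large subunit Rpl35a, with the same association, had 147 and 87.

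Large subunit genes held both the strongest and the absent promoters. A shared promoter peak was at 44 of 47 (93.6%), with strongest scores of 138 to 150 (median 148) in replicate 1 and 52 to 113 (median 87) in replicate 2. Rpl15, needed for maturation of the large subunit rRNA, had the highest mean rank of all 81 genes, at place 15 among the coding genes. Its peak, chr14:18271056-18271205, was the same window in both lists and scored 150 in replicate 1 and 113 in replicate 2. The same window also lies within 1 kb of a start of the neighbouring gene Nkiras1.

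Rpl13a, released from the ribosome in human myeloid cells to form a translation-silencing complex, had 149 and 111 in replicates 1 and 2. Rpl27 had 150 and 101, and its peak at chr11:101442196-101442345 was centred at -27 bp. Others at the ceiling in replicate 1 included Rpl28 with 100, Rpl41, the shortest of the ribosomal proteins, with 99, Rpl14 with 97, Rpl3, a protein of the peptidyl transferase centre, with 95, and Rpl30 with 84 in replicate 2. Genes at the same replicate 1 ceiling thus spread over many scores in replicate 2.

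Rpl5 and Rpl11 join the 5S rRNA in a particle that binds and restrains Mdm2, the ubiquitin ligase of p53. Rpl11 had 148 in replicate 1 and 92 in replicate 2, while Rpl5 had 138 and 76. Rpl5 had the lowest replicate 1 score of the 78 genes. Its strongest peak lay 349 bp after the start in replicate 1 and 9 bp after it in replicate 2. Rpl22, deleted in some human T cell leukemias, had 148 and 86, and Rpl38, whose loss disturbs translation of Hox mRNAs in mouse embryos, had 149 and 88.

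The 3 stalk genes, whose products recruit the elongation factors, had similar scores. Rplp0 had 149 and 85, Rplp1 146 and 91, and Rplp2 149 and 89 in replicates 1 and 2. The values of this small group lay inside the range of the other 2 classes.

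Members from other sites of the ribosome are listed here with their scores. Of the proteins around the exit of the peptide tunnel, Rpl26 had 146 and 102 in replicates 1 and 2, Rpl35 147 and 89, Rpl17 148 and 86, Rpl31 147 and 85, and Rpl19 144 and 80. Rpl12, at the base of the stalk, had 143 and 94. Of the proteins near the decoding centre, Rps15 had 149 and 96, while Rps23 had 146 and 68, one of the lower replicate 2 scores of its subunit. Rps20, which is marked with ubiquitin when ribosomes collide, had 147 and 96, and Rps25, needed for initiation at some viral internal entry sites, had 149 and 84. The small subunit genes given here by their range, which include Rps9, Rps12, Rps13, Rps15a, Rps16, Rps18, Rps28 and Rps29, had 145 to 149 in replicate 1 and 75 to 102 in replicate 2. The 13 such large subunit genes, Rpl7, Rpl7a, Rpl8, Rpl9, Rpl10a, Rpl13, Rpl21, Rpl23, Rpl24, Rpl32, Rpl36, Rpl37 and Rpl37a, had 141 to 149 and 74 to 104.

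The lowest mean ranks among the 78 genes belonged to 6 genes that were all open in both lists. Rps4x, the X-linked form of this small subunit gene, had 142 and 48 at chrX:102189276-102189425, a mean rank of 82.5. Rpl6 had 142 and 52, and Rps27a, which encodes a fusion of ubiquitin and a ribosomal protein, had 143 and 60. Rpl23a, a docking protein at the exit of the peptide tunnel, had 148 and 56. Rpl4, which lines that tunnel, had 140 and 70, and Rpl5 is given above. All 6 had replicate 2 scores of 76 or less, and Rps4x stood at place 9696 of the 12658 coding genes in mean rank.

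Members on the X chromosome were among the lower ones. Rpl10, a late-joining large subunit protein, had 147 and 77, Rpl36a 148 and 70, Rpl39 145 and 70, and Rps4x 142 and 48 in replicates 1 and 2. Their median replicate 2 score was 70, against 89 for the 74 autosomal genes with a shared promoter peak. Coding genes showed the same order, with a median replicate 2 score of 55 on X, against 76 on autosomes. The sex of the cells was not given, and the part of X copy number in these values was not tested.

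Genes with a sister copy differed sharply within some pairs. Rpl3l, the paralog of Rpl3 made in heart and skeletal muscle, had 1 promoter peak, in replicate 1, with a score of 57. That peak, chr17:24733576-24733725, was centred 5831 bp after the principal start and 966 bp from the nearest annotated start. No peak in either list lay at the principal start of Rpl3l, whereas Rpl3 had 150 and 95. Rpl10l, an intronless copy of Rpl10 used in the male germ line, had no promoter peak and no hotspot, and Rpl10 had 147 and 77. Rpl39l, likewise a testis gene, had no promoter peak and no hotspot, and Rpl39 had 145 and 70.

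The 2 other pairs had both copies open. Rps27l, known as a p53 target, had 146 and 89, and Rps27 had 147 and 85. Rpl36al, a copy of Rpl36a outside the X chromosome, had 148 and 102, and Rpl36a had 148 and 70. Rps4l was not among the protein-coding members and is not described. Rpl22l1 and Rpl7l1, whose names fall outside the rule, had 147 and 94, and 145 and 89. The copies without a shared promoter peak were thus the muscle gene and the testis genes.

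Open sites lay close to the starts. Over the 78 genes the strongest peak was centred at a median of -29.5 bp from the principal start in replicate 1 and -26 bp in replicate 2, against -37 bp in both lists for coding genes with a shared promoter peak. In replicate 2, 62 of the 78 (79.5%) were centred within 100 bp of the principal start, against 54.2% of those coding genes. The centre lay before the start in 54 of 78 (69.2%), against 66.7%, which is near the background. The strongest peaks of the 2 replicates were centred a median of 20 bp apart, and 63 of the 78 pairs lay within 40 bp, against 9792 of 12658 coding genes.

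For Rps24 and Rpl18 the strongest replicate 1 peak lay over 500 bp from the principal start. That of Rps24 was centred at -3667 bp, 74 bp from another annotated start of Rps24 and at the promoter of Polr3a, a subunit of RNA polymerase III, with 146, while a peak at -47 bp had 144. That of Rpl18 was centred at -2720 bp, 106 bp from another annotated start of Rpl18 and at the promoter of the sphingosine kinase gene Sphk2, with 150, while a peak at -60 bp had 147. In replicate 2 both genes had their strongest peak next to the start, with 92 for Rps24 at -67 bp and 106 for Rpl18 at -40 bp. Both genes thus had a peak at the principal start in both lists.

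**Figure D2:**
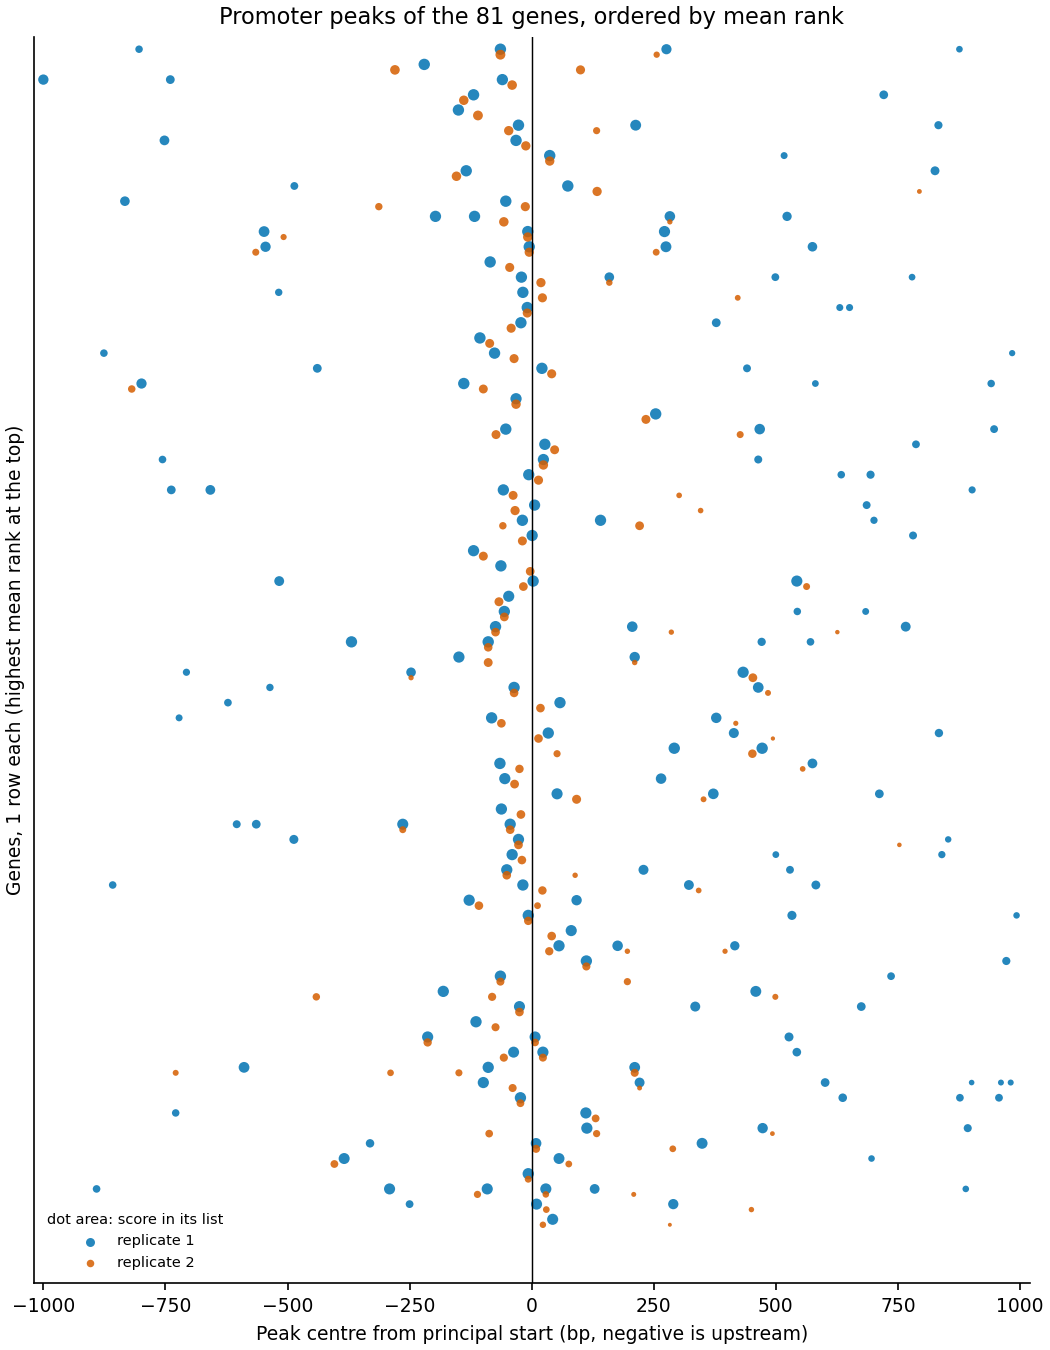
Centres of promoter peaks within 1000 bp of the principal start (horizontal, bp, negative upstream) for the 81 genes, one row each and ordered by mean rank, with dot area by score. Most rows hold a large dot of each replicate within 100 bp of the start, and the lowest rows, of Rpl3l, Rpl39l and Rpl10l, are empty.

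The wider hotspots gave the same count. A promoter hotspot was in both lists at 78 of 81 genes (96.3%), against 58.9% of coding genes. At 74 of the 78 genes with a shared promoter peak (94.9%) a hotspot reached the −log10 q ceiling of 100 in both lists, against 83.6% of coding genes with such a peak. The other 4 were Rpl10, Rpl23a, Rpl6 and Rplp2, which reached 4.72, 5.30, 6 and 6 in replicate 2. Sites at these genes were no wider than elsewhere, with a median widest hotspot of 1258 bp in replicate 1 and 646.5 bp in replicate 2, against 1495 and 646 bp for coding genes with a shared promoter peak. The number of promoter peaks was also alike, with a median of 3 in replicate 1 and 2 in replicate 2 in both sets.

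Some of the open sites lay at a neighbouring gene too. At 17 of the 78 genes (21.8%) the strongest replicate 1 peak lay within 1 kb of a start of another coding gene, against 20.7% of coding genes with a shared promoter peak. Examples were Rpl7a with Med22, a Mediator subunit, Rpl35a with Iqcg, Rps28 with Ndufa7, a subunit of respiratory complex I, and Rpl4 with Zwilch, of the kinetochore. At such genes the peak cannot be assigned to 1 of the 2 starts.

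Ribosomal protein genes often carry small nucleolar RNAs, which guide rRNA modification, in their introns. At least 1 snoRNA on the same strand lay inside 29 of the 81 genes, 56 in all, with 5 in Rpl4 and 4 in Rpl13a. The same count was not made over all coding genes, so whether it is high cannot be told here. All 29 had a shared promoter peak, against 49 of the 52 without one, and median replicate 2 scores were 92 and 87. Shared peaks outside promoters, counted within 50 kb of the gene or inside it, had a median of 4 among the 81 genes, against 3 among all coding genes and 4 among those with a shared promoter peak. The highest count was 17, at Rps18.

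Promoter sequence was then read from 250 bases before to 50 after the principal start, for exact letters on both strands. CpG observed over expected had a median of 0.85 among the 81 genes, against 0.56 among all coding genes and 0.76 among coding genes with a shared promoter peak. Median GC content was 56.0%, against 56.0% and 60.7%. The members thus had a higher median CpG ratio than either set, but not more GC. The number of CpG as such was not compared.

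Of 10 motifs, 2 had the highest shares relative to coding genes in this window. TCTCGCGA, taken from the palindromic element bound by ZBTB33 (Kaiso) and by BANP, was in 13 of the 81 promoters (16%), against 1.38% of coding genes and 2.15% of those with a shared promoter peak. CCGGAAG, the core recognised by ETS family factors such as GABP, was in 28 (34.6%), against 11.3% and 17.6%. Within 50 bp of the centre of the strongest replicate 1 peak the shares were 10.1% of the 79 members with such a peak, against 1.19% of coding genes with one, for ZBTB33/BANP, and 26.6%, against 9.41%, for ETS. These are matches of letters, and binding of any factor was not measured.

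Matches of both motifs lay mostly near the start, which was not particular to them. The median position of ETS matches was -27, and 24 of the 28 genes had a match within 100 bases on either side. ZBTB33/BANP matches had a median position of -31, and 11 of 13 genes had one within 100 bases. The same held for 36 of 43 genes with SP/KLF and 8 of 8 with the TATA box. The share was lower for some other motifs, such as YY1 with 7 of 10. Positions over all coding genes are not given. Rpl26, Rpl27a and Rps6 were among the genes in both sets, and together the sets covered 37 genes. The full element is a palindrome, so it is matched on each strand and was counted once per gene. The ETS and PU.1 letters share GGAAG but cannot match at the same place. The match nearest the start is shown for 10 of the genes, to let the shared core be compared, in GRCm38.p6 from RefSeq, with the core in capitals.
Rpl10a (chr17:28328525-28328554, plus strand): acgggcaactcTCGCGAGAacgcgggctct
Rpl23a (chr11:78183596-78183625, minus strand): tatataagctaTCGCGAGActtttatgagc
Rpl26 (chr11:68901531-68901560, plus strand): ctccgagactcTCGCGAGAtctcgcggcaa
Rpl27a (chr7:109519163-109519192, plus strand): cgcctgctaccTCGCGAGActtcgtgagct
Rpl4 (chr9:64173125-64173152, plus strand): agataattcTCGCGAGAgttgtgacgag
Rpl7a (chr2:26910744-26910773, plus strand): agggcgcctgcTCTCGCGAtatctgcggcc
Rps15a (chr7:118116195-118116224, minus strand): tgaccatgaagTCTCGCGAtagcgcttccg
Rps19 (chr7:24884139-24884168, plus strand): gtatctcttggTCTCGCGAatgctaatgct
Rps28 (chr17:33824545-33824574, minus strand): accgcgtgcggTCTCGCGAgagcgaaagtg
Rps6 (chr4:86857398-86857427, minus strand): gccggctgttcTCGCGAGAacttagagcgc

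At Rps19 the core began at -221 and the peak was centred at -220 bp in replicate 1, so the strongest peak sat on the match. In Rpl7a, Rps6 and Rps28 a core lay within 10 bases of the start. In Rpl4 the core in capitals began at -241 and the peaks were centred at -384 bp in replicate 1 and -404 bp in replicate 2. The median replicate 2 score was 93 for the 13 genes with the core, against 88 for the 65 others with a shared promoter peak.

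In the same window the other 8 motifs lay nearer to their backgrounds, given here as all coding genes and then coding genes with a shared promoter peak. YY1 (AANATGGC) was in 10 of 81 genes (12.3%), against 6.49% and 8.45%, and 6 of these were on the sense strand. The E-box CACGTG, the core bound by MYC with MAX, was in 10 (12.3%), against 7.76% and 10%. NRF1 (GCATGCGC) was in 4 (4.94%), against 3.41% and 5.16%. NFY (CCAAT) was in 25 (30.9%), against 38.3% and 38%. For another pair of motifs the direction turned with the background. SP/KLF (GGGCGG) was in 43 (53.1%), above the 45.8% of all coding genes and below the 63.5% of those with a shared promoter peak. The TATA box (TATAAA) was in 8 (9.88%), below 12.7% and above 7.15%.

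Near the peak centre some of these shares differed from those of the whole window. Within 50 bp of the centre of the strongest replicate 1 peak the TATA box was in 5 of 79 members (6.33%). The share was 1.7% of coding genes with such a peak, so the ratio was larger than that of ETS. That count took the letters on either strand. On the sense strand alone, over the whole window, they were in 4 of 81 members (4.94%). The backgrounds for that count were 8.81% of all coding genes and 4.41% of those with a shared promoter peak. Of the motifs of blood cell factors, PU.1 (GAGGAAGT) was in 2 members (2.47%) in the whole window, against 3.19% and 3.02%, and RUNX (TGTGGT) in 9 (11.1%), against 14.9% and 12.3%. Near the peak centre PU.1 was in 2 (2.53%), against 2.66%, and RUNX in 1 (1.27%), against 5.66%. None of the 10 motifs was found in 11 of the 81 promoters (13.6%). This share lay between the 16.4% of all coding genes and the 10.8% of those with a shared promoter peak. The 11 included the highly ranked Rpl27, Rpl28 and Rpl41. They also included Rpl5, with a mean rank of 91.2, and Rpl3l, without a shared promoter peak.

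**Figure D3:**
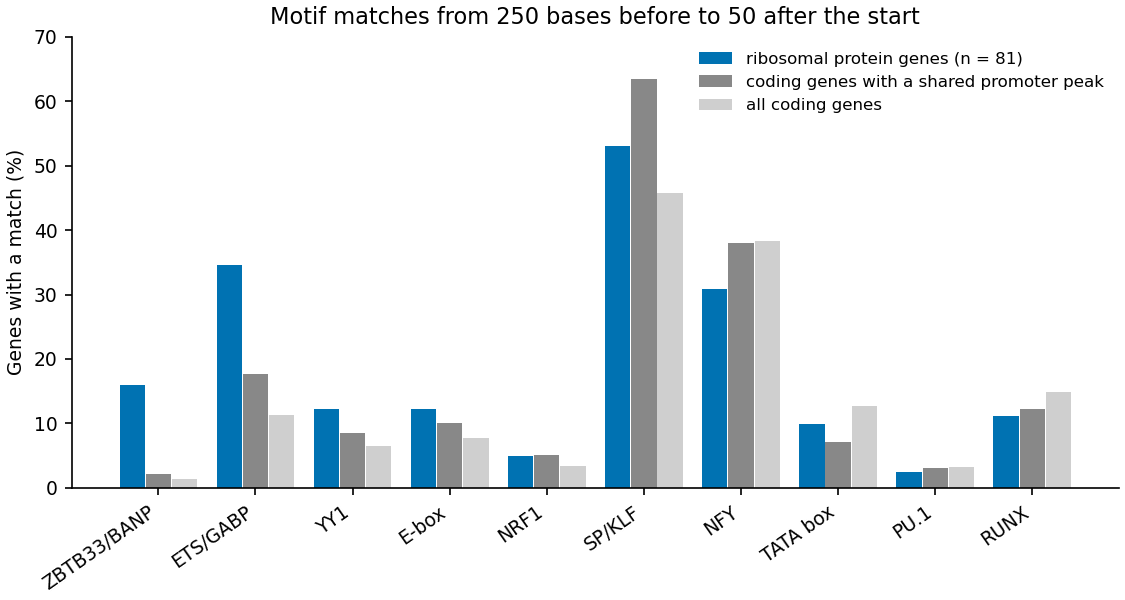
Share of genes (%) with an exact match of each motif from 250 bases before to 50 after the principal start, on either strand, for the 81 ribosomal protein genes, coding genes with a shared promoter peak and all coding genes. ZBTB33/BANP and ETS/GABP stand highest relative to the grey bars, and SP/KLF is common in all 3 sets.

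The TOP tract was read as the longest run of C and T on the sense strand that touches the 11 bases centred on the principal start. A run of 7 or more was found at 29 of 81 genes (35.8%), against 13.9% of coding genes. Of these 29 genes, 28 had a shared promoter peak, near the share of 96.3% over all 81 genes. With runs of 5 or more the contrast with coding genes was smaller, at 38 of 81 (46.9%), against 32%. At the starts of the RefSeq promoter table, which held 61 of the 81 genes, the share was 45.9%, against 16.6%. Over any annotated start it was 65 of 81 (80.2%), against 38.3%, but the members had a median of 6 annotated starts, against 3. The 4 longest runs at the principal start were 20 bases in Rpl34, 20 in Rps2, 19 in Rps24 and 18 in Rpl29, shown with 30 bases on each side of the start boundary and the run in capitals, in GRCm38.p6 from RefSeq.
Rpl34 (chr3:130730308-130730367, minus strand): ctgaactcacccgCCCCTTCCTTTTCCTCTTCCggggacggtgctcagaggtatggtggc
Rps2 (chr17:24720080-24720139, plus strand): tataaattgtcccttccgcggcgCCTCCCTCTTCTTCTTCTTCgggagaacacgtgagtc
Rps24 (chr14:24490688-24490747, plus strand): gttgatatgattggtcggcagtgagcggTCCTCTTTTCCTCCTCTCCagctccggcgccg
Rpl29 (chr9:106429509-106429568, plus strand): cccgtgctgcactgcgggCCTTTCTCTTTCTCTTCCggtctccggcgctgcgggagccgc

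In Rpl34 and Rpl29 the ETS letters on the antisense strand overlapped the end of the pyrimidine run. At the principal start long runs did not go with the highest scores in every case. Rpl15 and Rps19 had runs of 1 and 3 there, but of 17 and 13 over any annotated start. Rpl34 had promoter scores of 149 and 86, and Rpl29 had 146 and 85.

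**Figure D4:**
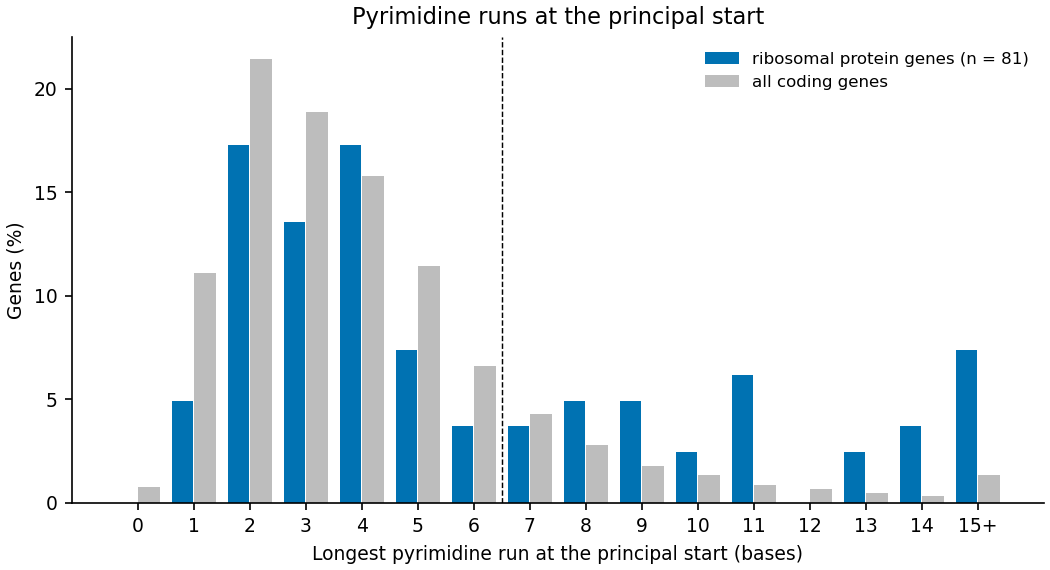
Share of genes (%) by length of the longest pyrimidine run at the principal start, for the 81 ribosomal protein genes and all coding genes, with runs of 15 or more in the last bar and the dashed line between 6 and 7 bases. Beyond the line stand 35.8% of the ribosomal protein genes and 13.9% of coding genes.

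Other genes of the translation machinery also had promoters that were nearly all open. A shared promoter peak was at 78 of 78 mitochondrial ribosomal protein genes, at 20 of 20 other TOP mRNA genes, at 19 of 20 ribosome biogenesis genes and at 10 of 10 genes for assembly chaperones and links to p53, beside the 58.2% of all coding genes. Median mean ranks were 96.5 for the cytosolic ribosomal protein genes, 94.8 for the mitochondrial ones, 96.3 for other TOP mRNAs, 95.5 for biogenesis and 95.1 for chaperones and p53 links. A promoter peak in the top 10% of replicate 2 scores was at 81.5% of the cytosolic ribosomal protein genes, against 65.4% of the mitochondrial ones, 85% of other TOP mRNA genes, 75% of biogenesis genes and 100% of the 10 genes for chaperones and p53 links. By this measure the cytosolic ribosomal protein genes thus lay within the range of the related lists.

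Some single genes of these lists scored like the highest members. Tpt1, a TOP mRNA gene for a tumour protein tied to growth, had 150 and 111 in replicates 1 and 2. Nolc1 and Ncl, nucleolar proteins of ribosome production, had 150 and 119, and 150 and 110. Fau had 150 and 101. Others did not: Mdm2, to which Rpl5 and Rpl11 bind, had 144 and 83, and Trp53, the gene of p53, had 150 but only 80 in replicate 2. At Gar1, an H/ACA snoRNP protein, both lists had a promoter peak, with 149 and 90, but no replicate 1 window overlapped one of replicate 2.

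**Figure D5:**
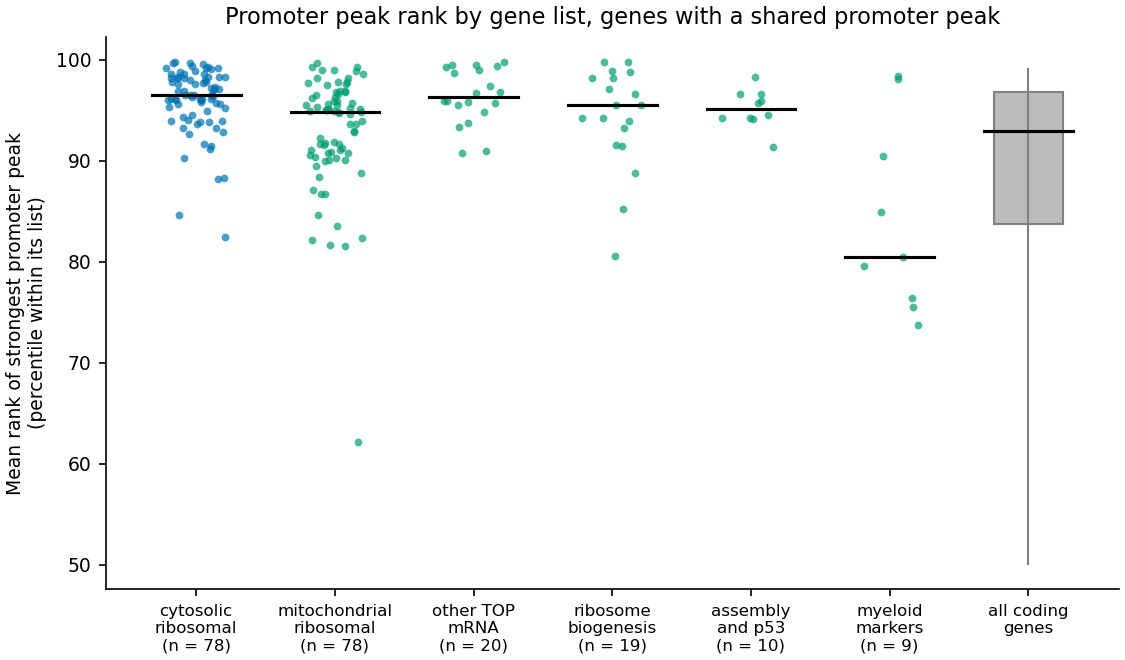
Mean rank of the strongest promoter peak (percentile within its own list, mean of both) for genes with a shared promoter peak, 1 dot per gene and a line at the median; for all coding genes the box spans the middle quartiles and the whisker the 5th to 95th percentile. The cytosolic ribosomal protein genes span 82.5 to 99.8 around a median of 96.5, against a median of 92.9 for all coding genes.

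Pseudogene copies gave a count of another kind. Many processed pseudogenes, retrotransposed copies of ribosomal protein mRNAs without their promoters, bear a member symbol followed by -ps. A shared peak lay within 1 kb of the start at 10 of 293 of them (3.41%), against 3.71% of all 12713 pseudogenes, and at 9 of the 10 it lay outside every coding promoter. The strongest was at Rpl21-ps1, with 147 and 55, centred 883 bp from its start. No source used here states how reads that match several copies were placed, and its part in these counts was not tested.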

How the data were processed

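DNase-seq peaks and hotspots on mm10 were taken as deposited, 1 list of each per biological replicate, which the text files with the samples tie to 1 alignment shared by both libraries. The deposited peak score, per the file headers' narrowPeak format, is a whole number whose computation no source used here states. The deposited hotspot value is a −log10 q value, from a q of 0.05 to a ceiling of 100. The aligner, the caller and the number of reads are not stated by any source used here.

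Entries outside the assembled chromosomes were left out, and repeated peaks were kept once. Genes and starts came from GENCODE M21, sequence from GRCm38.p6. A promoter peak overlapped the stretch within 1 kb of any annotated start. The principal start was that of the coding transcript with the best APPRIS class, then support level, then lowest transcript number. This order replaced an earlier one (APPRIS class, CCDS, basic tag, longest span) after the earlier starts had been seen, which changed the start of 12 of the 81 members. Ranks are percentiles within a list. Counts of members stand beside the same counts over all coding genes, and no p-value was computed, because there is no control and the members and lists were chosen with earlier results of these data known. The text names members without a shared peak, the 6 highest and 6 lowest in mean rank, stalk genes, Rpsa, paralog pairs, genes at a ceiling, the 4 longest runs and peaks over 500 bp from the start, and others for their known roles; some genes that this rule or these lists would name are not reported here. Python 3.11.15 with pandas 2.3.3 and numpy 2.4.6 was used, and the scripts were tested on simulated data. No column of other samples was used.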

Additional observations from a re-analysis of the deposited data

How the results depend on the processing

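The count of 78 members with a shared promoter peak stayed between 78 and 79 with windows of 250 bp or 2.5 kb, with the principal start alone, with a stricter overlap or score threshold, with lists of equal length, and with either list alone, against 51.8% to 71.1% of coding genes. Without the 5 paralogs ending in l it was 76 of 76. The hotspot count was 78 to 79 with either list alone, which was chosen after seeing the data, as was the median rank on autosomes alone, and 74 at the q ceiling. The median rank was 95.2 from replicate 2 alone and 98.1 from replicate 1 alone, against 89.6 and 96.1 over coding genes. The median peak centre lay at -26 bp when replicate 2 scores chose the peak. The count of pyrimidine runs moved to 65 over any annotated start. The cause of these changes was not tested. It was 28 of 61 at the RefSeq starts, tried after seeing the data. The order that first chose the principal start, by longest span, gave slightly lower counts than the one put in its place after seeing the data: 26 members with a pyrimidine run against 29, 23 with an ETS match against 28 and 12 with a ZBTB33/BANP core against 13. The median peak centre was then at -26 bp.

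Counts on 1 strand or near the peak centre were lower for most motifs by construction, since less sequence was searched. For the ZBTB33/BANP core they were 11 on the sense strand, against 1.01% of coding genes, and 8 near the peak centre, against 1.19%. No paired analysis was possible because each biological replicate has 1 list and no result comes from a test. Unknown depth and the score ceiling limit every comparison of strength.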
